A study of Mus musculus with 12 samples.

Results

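Interferon receptors and response genes were examined as a group of 44 genes, taken by gene name from a table of 54146 genes. By role they are 7 genes of the receptors and of JAK-STAT signalling, 4 interferon regulatory factors, 16 antiviral effectors and sensors, 7 GTPases of the GBP and IRG families, 3 feedback regulators and 7 other induced genes. All 44 were found in the table, and all 44 passed the filter for testing (1 TPM or more in 3 or more of the 12 libraries), which 13002 genes passed in all. The libraries were made from D2A1 cells, a mouse mammary tumor line that carried a doxycycline-inducible histone H2B fused to GFP and had been stained with CellVue Claret, a membrane dye that thins out with each division. The cells were injected into the tail vein of female mice of 6 to 8 weeks and sorted from the lung after 12 to 14 days in aliquots of 50 cells. GFP-positive cells that had kept the dye are called dormant, and GFP-positive cells that had lost it are called growing. Host mice were either WT by their label or Tgfbr2 KO, in which floxed Tgfbr2 was deleted by a Cre driven from the Lysozyme 2 promoter, which is active in myeloid cells, so the deletion lay in host myeloid cells and not in the tumor cells. The 4 groups, of 3 libraries each, are named by state and host (dormant or growing, WT or KO). The labels number the libraries without naming the animals, so p-values measure the spread between these libraries.

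Interferons are secreted proteins that cells release on infection or immune activation. Type I interferons bind the receptor formed by IFNAR1 and IFNAR2, and IFN-γ, made mainly by T cells and NK cells, binds the receptor formed by IFNGR1 and IFNGR2. Bound receptors activate Janus kinases, which phosphorylate STAT proteins. STAT complexes that contain STAT2 and IRF9 bind interferon-stimulated response elements (ISRE), and other STAT dimers bind gamma-activated sites (GAS). The genes switched on in this way include antiviral effectors, GTPases that attack vacuoles of intracellular pathogens, further IRFs and inhibitors such as SOCS1 and USP18. In tumors these genes are widely used as a readout of the interferon a cell has met.

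The libraries differed in ways that touch every comparison. Libraries from WT hosts are labelled library batch 1 and those from KO hosts library batch 2. Host and batch therefore cannot be told apart, while comparisons of dormant with growing cells lie within 1 batch. The dormant KO libraries held little of Spp1 and Akr1c18, which were abundant in the other 9 libraries. Spp1 was at 1236 to 1509 TPM in dormant KO against 28980 to 39951 elsewhere, and Akr1c18 at 11.6 to 22.9 TPM against 1309 to 2580. A further gene of the tumor line, Ibsp, was found at 40.3 to 76.1 TPM in growing libraries, was listed at 0 in dormant WT and was at 0.05 to 4.47 in dormant KO. In the 3 dormant KO libraries the summed level of 10 alveolar type 2 markers was 40207 to 42496 TPM, against at most 472 elsewhere. Summed levels of 11 macrophage markers were 1743 to 2137 TPM in dormant WT cells, 3442 to 3679 in dormant KO cells, 44.8 to 86.7 in growing WT cells and 199 to 224 in growing KO cells. Lyz2 made up most of the dormant KO sum, at 2833 to 2944 TPM there against 782 to 1407 in dormant WT cells. Markers of neutrophils (4062 to 4370 TPM), endothelium (540 to 646), T and NK cells (282 to 409) and B cells (173 to 187) were likewise highest in dormant KO cells. The dormant WT libraries had 11325 to 13242 genes above 0, against 13406 to 15315 in the others. Tgfbr2 itself lay between 0.14 and 11.5 TPM in the dormant libraries and between 0.44 and 1.58 in the growing ones, and, being deleted in host cells only, it did not check the labels. In pooled cells such as these, a change in the share of cells of a type and a change of RNA per cell cannot be told apart.

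The sequences through which interferons act were looked up in the promoters of the members, in RefSeq windows on GRCm38.p6 that run from 250 bases before the transcription start to 50 bases from it. Of the 44 members, 37 had a window. Mx1, Zbp1, Rtp4, Iigp1, Usp18, Ifi27l2a and Parp14 were not in the table. The ISRE core was searched on both strands as GAAA, any 2 bases and GAAA again, and GAS as TTC, any 3 bases and GAA, which reads the same on both strands. Matches that overlap were kept apart. The ISRE core was present in 16 of 37 members (43.2%), against 3.99% of 27025 genes with windows of the same length, and GAS in 13 (35.1%), against 9.55%. At least 1 of the motifs was present in 23 members (62.2%), against 12.9% of all genes. The windows of antiviral effectors held the ISRE core in 9 of 13 genes and those of the GTPases in 5 of 6, whereas 1 of 7 receptor and JAK-STAT genes (Stat2) and 0 of 4 IRFs held it. GAS was present in Ifnar1, Ifnar2, Irf1 and Irf8 among the latter 11 genes. A match is a string of letters and not a measured binding site.

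Of the 12 members that were called in at least 1 comparison, 6 had a match, and their windows are printed 5′ to 3′ on the strand of the gene to show the motifs that these genes carry. Capitals mark the matches. Those of Ifit1 (chr19:34640639-34640938, plus strand) are 2 ISRE cores, and those of Irf8 (chr8:120736108-120736407, plus strand) are 2 GAS. Irgm1 (chr11:48871371-48871670, minus strand) and Gbp3 (chr3:142559794-142560093, plus strand) have 2 overlapping ISRE cores each. In Bst2 (chr8:71537423-71537722, minus strand) a GAS runs into 2 overlapping ISRE cores, and in Ifitm3 (chr7:141010695-141010994, minus strand) 2 ISRE cores and a GAS lie behind the start.
Ifit1: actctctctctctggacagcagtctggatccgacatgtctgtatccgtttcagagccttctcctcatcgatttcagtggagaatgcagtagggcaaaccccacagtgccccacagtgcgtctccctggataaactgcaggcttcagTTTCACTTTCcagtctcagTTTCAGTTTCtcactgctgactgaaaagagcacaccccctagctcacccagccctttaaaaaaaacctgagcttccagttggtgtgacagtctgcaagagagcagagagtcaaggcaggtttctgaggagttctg
Irf8: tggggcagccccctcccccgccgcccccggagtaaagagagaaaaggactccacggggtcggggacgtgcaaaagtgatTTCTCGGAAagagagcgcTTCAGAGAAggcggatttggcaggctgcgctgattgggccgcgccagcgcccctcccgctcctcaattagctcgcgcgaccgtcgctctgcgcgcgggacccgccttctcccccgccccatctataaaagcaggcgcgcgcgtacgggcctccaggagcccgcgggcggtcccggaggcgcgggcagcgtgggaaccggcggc
Irgm1: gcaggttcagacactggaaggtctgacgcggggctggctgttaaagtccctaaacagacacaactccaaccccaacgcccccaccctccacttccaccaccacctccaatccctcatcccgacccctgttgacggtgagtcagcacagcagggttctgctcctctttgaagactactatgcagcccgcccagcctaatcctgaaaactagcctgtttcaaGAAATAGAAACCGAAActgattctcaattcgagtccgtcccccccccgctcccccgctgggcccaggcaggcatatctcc
Gbp3: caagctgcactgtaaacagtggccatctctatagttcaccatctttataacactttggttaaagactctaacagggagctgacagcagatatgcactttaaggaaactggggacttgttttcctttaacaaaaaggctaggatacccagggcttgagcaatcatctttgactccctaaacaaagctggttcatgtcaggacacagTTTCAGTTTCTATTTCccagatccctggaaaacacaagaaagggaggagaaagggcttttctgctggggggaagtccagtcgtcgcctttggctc
Bst2: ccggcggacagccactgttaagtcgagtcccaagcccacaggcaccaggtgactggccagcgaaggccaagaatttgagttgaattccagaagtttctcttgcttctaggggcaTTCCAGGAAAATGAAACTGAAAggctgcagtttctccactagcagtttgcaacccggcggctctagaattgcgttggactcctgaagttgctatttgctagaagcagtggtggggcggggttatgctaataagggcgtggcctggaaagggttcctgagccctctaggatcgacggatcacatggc
Ifitm3: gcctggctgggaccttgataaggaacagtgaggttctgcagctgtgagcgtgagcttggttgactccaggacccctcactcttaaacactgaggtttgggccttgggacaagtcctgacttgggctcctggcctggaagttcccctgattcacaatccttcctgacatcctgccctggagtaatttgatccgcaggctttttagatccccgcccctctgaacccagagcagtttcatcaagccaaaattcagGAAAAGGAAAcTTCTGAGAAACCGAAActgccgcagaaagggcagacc

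**Figure D1:**
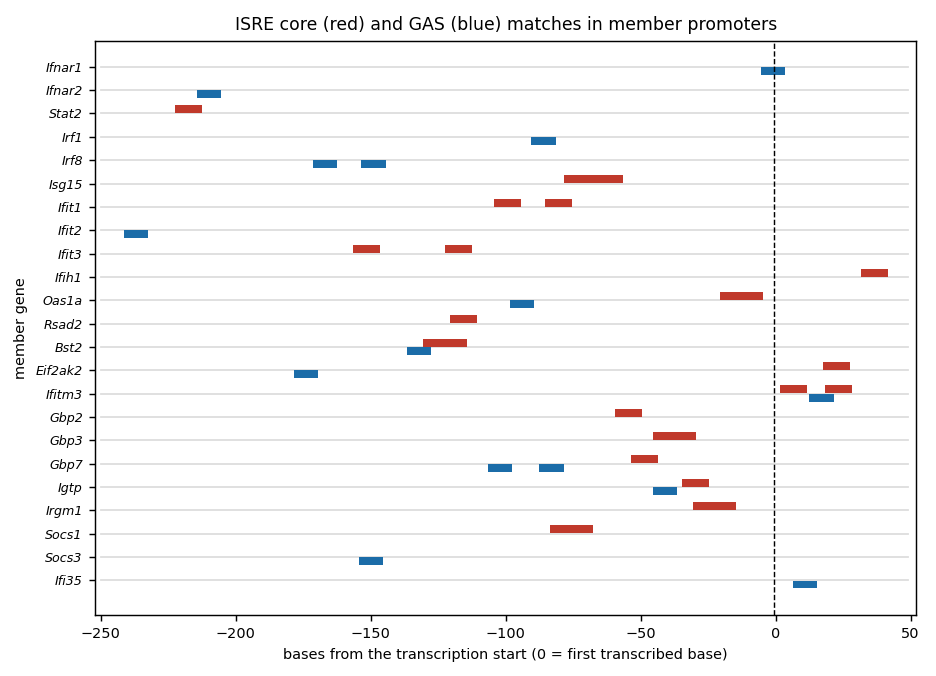
Positions of ISRE core (red) and GAS (blue) matches in the 23 member promoters that hold at least 1, on an axis of bases from the transcription start, where 0 is the first transcribed base. The matches of Ifih1, Eif2ak2 (its ISRE core), Ifitm3 and Ifi35 lie behind the start, that of Ifnar1 spans it, and the others lie before it.

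The windows that held neither motif included those of Cmpk2, Ifi44 and Xaf1, which were called between the dormant groups.

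The members spanned a wide range of levels. Ifitm3, a membrane protein that blocks virus entry, was the highest member in every library (2338 to 6223 TPM), and Ifi27l2a, a small interferon-induced protein of mitochondria and the nuclear envelope, was the next highest in 11 of 12 libraries, dormant WT replicate 1 being the exception. The median member stood at 32.5, 16.04 and 20.3 TPM in dormant WT cells, at 21.5, 27.6 and 21.1 in dormant KO cells, at 23.7, 30.1 and 28.5 in growing WT cells and at 31.8, 30.1 and 30.7 in growing KO cells. The lowest of these values belonged to dormant WT replicate 2, and the growing KO values were the closest to each other. The members varied most among the dormant WT libraries. There the median SD of a member over the 3 libraries was 1.42 on the log2(TPM + 1) scale, against 0.456 in dormant KO cells, 0.255 in growing WT cells and 0.375 in growing KO cells. Over all tested genes these SDs were 0.999, 0.570, 0.342 and 0.440. In dormant WT, 13 members (29.5%, beside 28.6% of all tested genes) ran from under 1 TPM in 1 library to at least 10 in another, and in the other 3 groups 0 members did. They were Ifih1, Ifit2, Ifit3, Ifnar2, Mx1, Nmi, Oas1a, Oasl2, Rsad2, Samd9l, Socs1, Stat2 and Zbp1. Zbp1, a sensor of Z-form nucleic acid, was listed at 0, 64.2 and 138 TPM in dormant WT replicates 1, 2 and 3, whereas it lay between 126 and 130 in dormant KO cells. Ifit3, an effector that binds foreign RNA together with Ifit1, was listed at 64.9, 63.9 and 0 TPM in dormant WT cells. The zeros fell in different libraries for different genes.

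**Figure D2:**
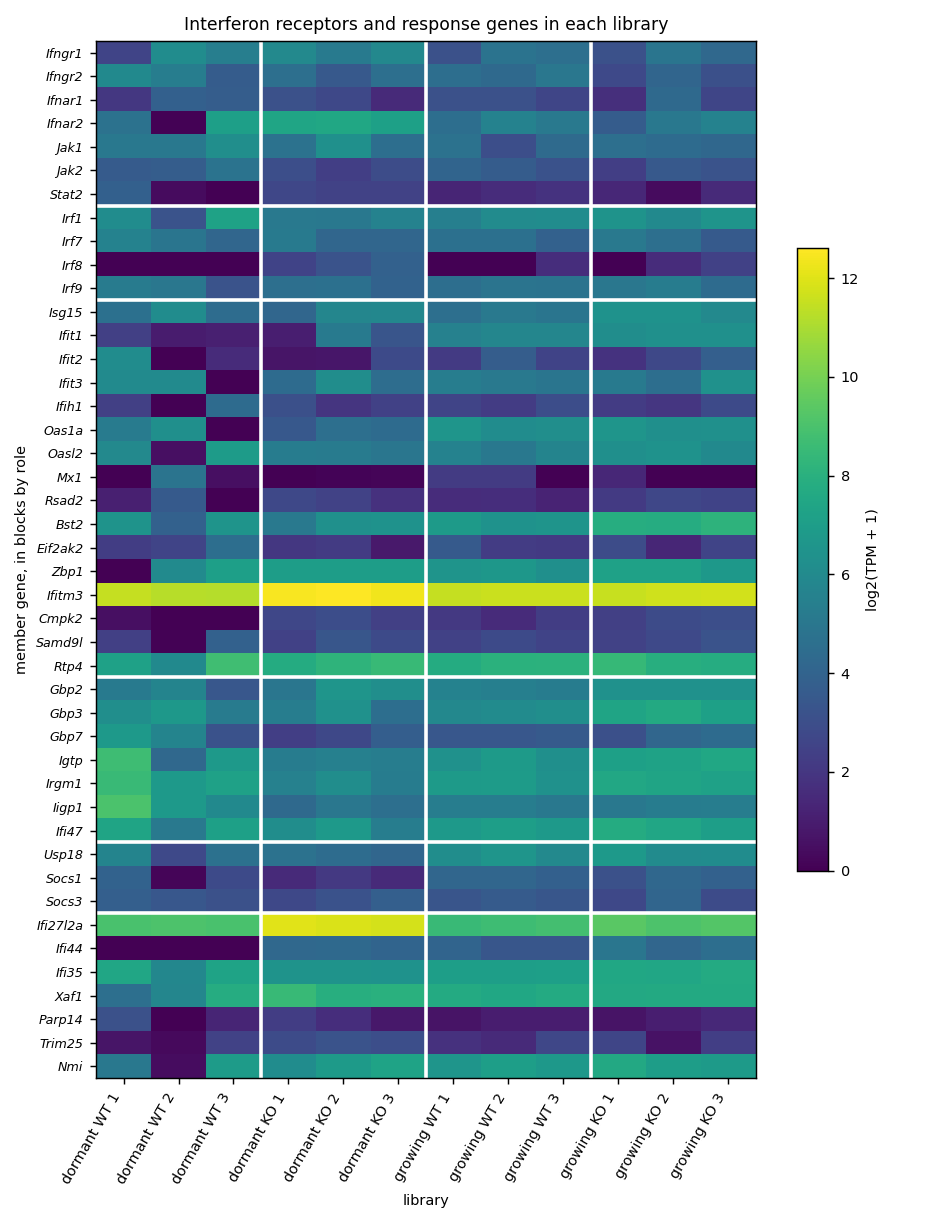
Heat map of the 44 members (rows, in blocks by role) in the 12 libraries (columns), coloured by log2(TPM + 1). The 3 dormant WT columns differ from each other in many rows, the bright rows are Ifitm3 and Ifi27l2a, and Ifi44 and Irf8 are dark throughout dormant WT.

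Neither chain of the IFN-γ receptor was called in any comparison. Ifngr1, the chain that binds IFN-γ, was at 4.92, 68.6 and 40.8 TPM in dormant WT cells, 59.7, 34.1 and 57.4 in dormant KO cells, 7.82, 26.5 and 23.4 in growing WT cells and 7.74, 28.4 and 18.3 in growing KO cells. The dormant KO values lay above all growing values, but the dormant groups overlapped. The difference between dormant KO and dormant WT was 0.95 ± 0.86 (SE) on the log2 scale, with a 95% interval of -0.92 to 2.83 (limma adjusted p = 0.474), and it was -0.11 without dormant WT replicate 1. Ifngr2, the chain that brings in JAK2, was at 61.2, 39.1 and 11.6 TPM in dormant WT cells, 23.1, 10.4 and 22.97 in dormant KO cells, 22.8, 18.7 and 30.6 in growing WT cells and 5.92, 15.99 and 7.33 in growing KO cells. All growing KO values were below all growing WT values, which made it the 1 member with that pattern, and the dormant groups overlapped. The difference between the dormant groups was -0.75 ± 0.63 (SE), with an interval of -2.14 to 0.64 (limma adjusted p = 0.444).

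The type I receptor genes were not called either. Ifnar1 was at 3.06, 13.8 and 12.02 TPM in dormant WT cells, 7.60, 5.64 and 1.82 in dormant KO cells, 7.72, 7.82 and 5.17 in growing WT cells and 2.21, 19.1 and 5.29 in growing KO cells, and every pair of groups overlapped. Ifnar2 was at 25.6, 0.07 and 138 TPM in dormant WT cells, 167, 182 and 142 in dormant KO cells, 22.6, 46.6 and 33.7 in growing WT cells and 11.8, 31.9 and 47.0 in growing KO cells. The 3 dormant KO libraries were above the other 9. Between the dormant groups the difference was 3.37 ± 1.31 (SE) (limma adjusted p = 0.0888). It was called without dormant WT replicate 3 (4.94, limma adjusted p = 0.00669), with median-ratio scaling (3.89, adjusted p = 0.0459) and with quantile normalization (3.09, adjusted p = 0.0374), and over all alternatives the adjusted p of Ifnar2 ran from 0.00669 to 0.290. Ifnar2 overlaps the annotated gene Gm21970 on the same strand, and RSEM can share reads between them.

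Among the kinases, Jak1, which serves both receptors, was at 32.5, 31.9 and 75.1 TPM in dormant WT cells, 25.9, 79.1 and 22.8 in dormant KO cells, 25.5, 7.29 and 19.5 in growing WT cells and 23.0, 20.5 and 17.4 in growing KO cells. Dormant WT values lay above all growing WT values, and the dormant groups overlapped. Jak2, which serves the IFN-γ receptor, was at 11.3, 12.3 and 26.6 TPM in dormant WT cells, 7.06, 4.10 and 6.58 in dormant KO cells, 15.6, 11.6 and 7.97 in growing WT cells and 4.11, 10.3 and 8.46 in growing KO cells. The dormant KO values lay below the dormant WT values, and the difference was not called. Stat2, a transcription factor of type I signalling, was at 13.4, 0.28 and 0 TPM in dormant WT cells, 5.47, 4.66 and 4.60 in dormant KO cells, 1.49, 2.02 and 2.58 in growing WT cells and 1.69, 0.28 and 1.84 in growing KO cells. Dormant WT replicate 1 stood apart from the other libraries of its group, and Stat2 was called between the dormant groups only when that library was left out. Of these 7 genes limma called 0 in each of the 5 contrasts, and at an unadjusted p of at most 0.05 they numbered 2 between the dormant groups (Ifnar2 and Jak2, beside 35.3% of all tested genes), 0 between the growing groups (7.53%), 1 for dormant against growing in WT hosts (Jak1, 23.9%) and 0 in KO hosts (30.8%).

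Of the 4 IRFs, Irf8 was the 1 that was called. Irf8 (ENSMUSG00000041515.10, chr8:120736358-120756694), a factor of macrophages, dendritic cells and B cells that IFN-γ also induces, was listed at 0 in all of dormant WT, whereas its dormant KO levels were 4.72, 8.48 and 13.9 TPM cells. It was at 0, 0 and 2.10 TPM in growing WT cells and at 0, 2.05 and 4.33 in growing KO cells. Dormant KO lay above each other group. Irf8 rose between dormant WT and dormant KO by 3.22 ± 0.68 (SE), limma adjusted p = 0.00461, a size that depends on the pseudocount since the WT libraries are listed at 0. It was lost with array weights (limma adjusted p = 0.144, within a range of 0.00165 to 0.144 over the alternatives). Irf8 overlaps Gm20388 on the same strand. The macrophage, B cell and T and NK cell marker sums given above were also highest in dormant KO cells. Lyz2 carried most of that macrophage sum, whereas C1qa (117 to 141 TPM, against 161 to 323 in dormant WT) and C1qb (135 to 186, against 189 to 296) were lower in dormant KO. The other macrophage markers found overlapped between the dormant groups. The 8 markers of conventional dendritic cells summed to 7.67 to 37.6 TPM in dormant KO, 0 to 0.47 in dormant WT, 4.56 to 10.2 in growing WT and 5.04 to 14.2 in growing KO. The 8 markers of plasmacytoid dendritic cells, which include Irf8 and Bst2 themselves, summed to 123 to 211 TPM in dormant KO, 63.7 to 167 in dormant WT, 135 to 158 in growing WT and 266 to 330 in growing KO. Within that list Siglech was above 0 in dormant KO only (1.83 to 22.7 TPM), Ly6d (8.22 to 43.1 TPM, against at most 4.21 elsewhere) and Cox6a2 (6.53 to 46.5, against at most 2.56) were highest there, Ccr9 was at most 0.1 in every library, Tcf4 was lowest in dormant KO (13.3 to 17.4 TPM, against 27.3 to 78.2 elsewhere) and Klk1 was listed at 0 in all 12 libraries. Their part in the result was not tested.

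The other IRFs among the members showed no such split. Outside the member list, Irf5 was at 0.09, 0 and 0 TPM in dormant WT cells and 3.17, 12.7 and 8.17 in dormant KO cells. It was called as well, with a difference of 2.97 ± 0.79 (SE), limma adjusted p = 0.0166. Irf2 and Irf3, also outside the list, overlapped between the dormant groups. Irf1, a transcription factor that IFN-γ induces early, was at 68.7, 8.47 and 155 TPM in dormant WT cells, 33.6, 31.95 and 47.5 in dormant KO cells, 43.0, 66.8 and 67.9 in growing WT cells and 89.1, 63.0 and 90.8 in growing KO cells. The dormant KO values lay below all growing KO values. Irf7, the factor that amplifies type I interferon production, was at 47.4, 29.0 and 16.6 TPM in dormant WT cells, 34.1, 16.7 and 16.7 in dormant KO cells, 24.3, 23.9 and 14.3 in growing WT cells and 32.8, 23.6 and 10.7 in growing KO cells. Irf9, the DNA-binding partner of STAT2, was at 36.7, 31.2 and 8.45 TPM in dormant WT cells, 23.4, 24.6 and 14.8 in dormant KO cells, 22.2, 27.5 and 26.8 in growing WT cells and 31.4, 38.1 and 19.9 in growing KO cells. For Irf7 and Irf9 every pair of groups overlapped.

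Setting dormant KO against dormant WT cells asks how interferon genes of dormant tumor cells differ with loss of myeloid TGF-β signalling in the host. In these libraries 8 of 44 members were called (18.2%), beside 22.3% of all tested genes. The 6 that rose were Ifi44, Irf8, Ifi27l2a, Cmpk2, Xaf1 and Ifitm3 (13.6% of members, beside 12.9% of all genes), and the 2 that fell were the GTPases Iigp1 and Irgm1 (4.55%, beside 9.39%). The median difference of the members was 0.20, beside 0.17 for all tested genes. By role, 2 of 16 antiviral genes, 3 of 7 other induced genes and 1 of 4 IRFs rose, 2 of 7 GTPases fell, and 0 of 3 feedback regulators and 0 of 7 receptor and JAK-STAT genes were called. With no filter 7 members were called (15.9%, beside 9.84% of all tested genes), and with array weights 6 (13.6%, beside 10.9%), so which share was the larger depended on the setting.

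Ifi27l2a (ENSMUSG00000079017.3, chr12:103442167-103443680) was at 510, 539 and 497 TPM in dormant WT cells and at 4245, 3772 and 3484 in dormant KO cells. It was at 371, 409 and 458 TPM in growing WT cells and at 666, 548 and 601 in growing KO cells. The dormant KO libraries lay far above all others, with little spread. The difference between the dormant groups was 2.89 ± 0.12 (SE), limma adjusted p = 5.3e-08, and it was called under every alternative (2.63 to 3.41). Ifitm3 (ENSMUSG00000025492.6, chr7:141009586-141010770) was at 2869, 2466 and 2338 TPM in dormant WT cells and at 5623, 6223 and 5231 in dormant KO cells, whereas it was at 2918, 3120 and 3059 TPM in growing WT cells and at 2969, 3340 and 3377 in growing KO. Its mean was 5692 ± 499 TPM (SD, n = 3) in dormant KO cells and 2558 ± 277 in dormant WT cells. The difference was 1.16 ± 0.088 (SE), limma adjusted p = 4.3e-06, and with quantile normalization it was 0.94 and under the size required for a call.

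Ifi44 (ENSMUSG00000028037.13, chr3:151730922-151749960), a cytoplasmic protein induced by type I interferon, was listed at 0.01, 0 and 0 TPM in dormant WT cells. It was at 18.3, 18.8 and 15.5 TPM in dormant KO cells, 15.6, 9.44 and 9.4 in growing WT cells and 30.2, 16.7 and 22.2 in growing KO cells. Dormant WT was the group that stood apart. The difference was 4.20 ± 0.46 (SE), limma adjusted p = 6.2e-05, and it was called under every alternative (2.17 to 7.41, which follows the pseudocount). Cmpk2 (ENSMUSG00000020638.8, chr12:26469204-26479837), a mitochondrial nucleotide kinase next to Rsad2, was at 0.42, 0 and 0 TPM in dormant WT cells and at 5.33, 6.85 and 4.32 in dormant KO cells. It was at 3.25, 1.98 and 3.92 TPM in growing WT cells and at 4.21, 6.47 and 7.16 in growing KO cells, so dormant WT again lay below the other 3 groups. Its difference was 2.51 ± 0.47 (SE), limma adjusted p = 0.00209, and it was lost with array weights (limma adjusted p = 0.0557, within a range of 0.000645 to 0.0557). Xaf1 (ENSMUSG00000040483.15, chr11:72301629-72313733), a pro-apoptotic factor, was at 23.5, 53.7 and 222 TPM in dormant WT cells and at 355, 239 and 252 in dormant KO cells, against 204, 182 and 206 in growing WT cells and 193, 199 and 203 in growing KO. Its difference of 2.06 ± 0.59 (SE), limma adjusted p = 0.0244, kept its call in 1 of 6 fits that left out a library. Without dormant WT replicates 1 or 2 or dormant KO replicates 1, 2 or 3 the limma adjusted p was 0.0504 to 0.0864, and over all alternatives it was 0.000123 to 0.178.

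The GTPases that fell are immunity-related GTPases that act on vacuoles of intracellular microbes. Iigp1 (ENSMUSG00000054072.11, chr18:60376027-60392634) was at 517, 112 and 62.0 TPM in dormant WT cells, 18.9, 30.6 and 23.5 in dormant KO cells, 39.3, 39.5 and 32.2 in growing WT cells and 32.2, 37.8 and 39.1 in growing KO cells. The dormant WT values lay above and the dormant KO values below those of all other groups. The difference was -2.64 ± 0.62 (SE), limma adjusted p = 0.00853. Irgm1 (ENSMUSG00000046879.7, chr11:48861968-48871683) was at 375, 108 and 147 TPM in dormant WT cells, 46.1, 70.5 and 38.2 in dormant KO cells, 114, 121 and 83.4 in growing WT cells and 185, 163 and 149 in growing KO cells. The dormant KO values were the lowest of all groups. The difference was -1.84 ± 0.42 (SE), limma adjusted p = 0.00754. Both calls held without any 1 library and were lost when the fit held only the 6 dormant libraries (limma adjusted p = 0.0967 for Iigp1 and 0.0849 for Irgm1, the highest over the alternatives, the lowest being 0.00140 and 0.00198). Of the 7 GTPases, 6 had a difference below 0, or 5 with median-ratio scaling, and 5 were not called.

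The count of calls between the dormant groups depended on the dormant WT libraries. Without dormant WT replicate 2 it was 14 (31.8%, beside 27.0% of all tested genes in that fit), of which 7 were among the 8, with Gbp2, Ifi47, Igtp, Irf1, Oasl2, Rsad2 and Socs1 added. Without dormant WT replicate 3 it was 15 (34.1%, beside 26.0%) and included all 8, with Gbp7, Ifnar2, Nmi, Oas1a, Rtp4, Trim25 and Zbp1 added. Median-ratio scaling moved the median of all tested genes from 0.17 to 0.52 and that of the members from 0.20 to 0.68. With quantile normalization these medians were -0.14 for all tested genes and 0.22 for the members. Batch, host, the lung marker genes and the low Spp1 and Akr1c18 levels move together in this comparison, and their part in these differences was not tested. Between groups that were all above or all below, 8 members were higher without overlap (18.2%, beside 18.6% of all tested genes) and 4 were lower (9.09%, beside 13.0%). The 2 of these that were higher and not called were Ifnar2 and Trim25, and those lower and not called were Jak2 and Eif2ak2.

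**Figure D3:**
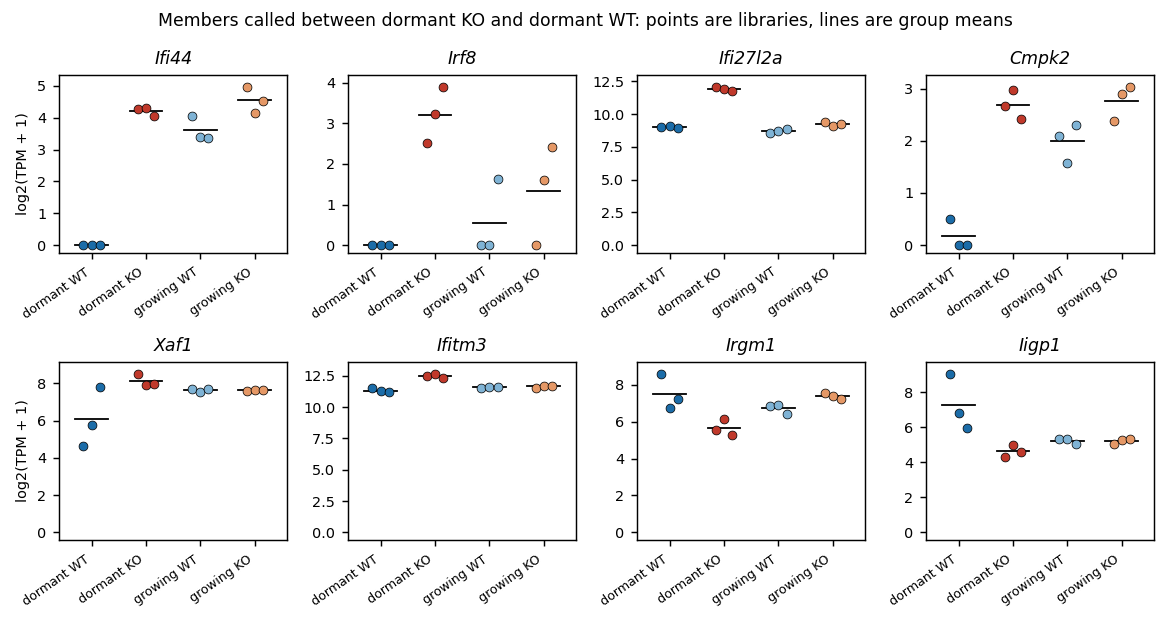
The 8 members called between dormant KO and dormant WT, in all 4 groups. Each panel has its own axis of log2(TPM + 1), points are libraries and lines are group means. Ifi44 and Cmpk2 are low in dormant WT only, Irf8, Ifi27l2a and Ifitm3 are highest in dormant KO cells, and the spread of Xaf1, Irgm1 and Iigp1 is widest in dormant WT cells.

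The comparison of growing KO with growing WT cells asks the same of cells that had divided. Here limma called 0 of 44 members, beside 0.977% of all tested genes (0.715% higher and 0.261% lower), and 3 had an unadjusted p of at most 0.05 (Isg15, Gbp3 and Ifi27l2a), beside 7.53% of all tested genes. In 15 members (34.1%) all 3 growing KO libraries were above all 3 growing WT libraries, which was so for 13.3% of all tested genes, and in 1 member (Ifngr2, 2.27%) they were below, beside 10.6%. The 15 were the antiviral genes Bst2, Cmpk2, Ifit1, Isg15, Oasl2, Rsad2 and Zbp1, the GTPases Gbp2, Gbp3, Ifi47, Igtp and Irgm1, and Ifi27l2a, Ifi35 and Ifi44. That is 7 of 16 antiviral genes, 5 of 7 GTPases and 3 of 7 other induced genes, and 0 of 7 receptor and JAK-STAT genes. The median difference of the members was 0.21, beside 0.02 for all tested genes, and 31 of 44 were above 0 (27 with quantile normalization, where 12 members were higher without overlap and 1 was lower, 27.3% and 2.27%, beside 11.8% of all tested genes in each direction). With 3 libraries a group an exact permutation test of a single gene cannot go below p = 0.1.

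Isg15, Bst2 and Gbp3 were picked for description with their values known. Isg15, a ubiquitin-like protein attached to other proteins, was at 23.0, 33.7 and 28.6 TPM in growing WT cells and at 83.8, 83.5 and 59.5 in growing KO cells. Its difference was 1.38 ± 0.55 (SE), limma adjusted p = 0.529. Bst2 (tetherin), which holds budding viruses at the membrane, was at 114, 86.3 and 90.8 TPM in growing WT cells and at 227, 225 and 280 in growing KO cells. Its difference was 1.33 ± 0.62 (SE), limma adjusted p = 0.690. Gbp3, a guanylate-binding protein, was at 58.8, 67.2 and 73.9 TPM in growing WT cells and at 166, 198 and 143 in growing KO cells. Its difference was 1.32 ± 0.47 (SE), limma adjusted p = 0.416. When the spread was estimated from the 6 growing libraries alone, these 3 genes were called, with limma adjusted p of 0.0301 for Isg15, 0.0147 for Bst2 and 0.0156 for Gbp3. They were also called with array weights, and in no other alternative, where their adjusted p reached 1 for Isg15 and Bst2 and 0.883 for Gbp3. The fit of 12 libraries shares its estimate of spread with the more variable dormant WT libraries.

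Gbp2 was at 46.6, 42.3 and 37.6 TPM in growing WT cells and at 82.1, 81.7 and 81.1 in growing KO cells, the closest set of replicates among the GTPases. Igtp was at 82.9, 116 and 76.0 TPM in growing WT cells and at 142, 153 and 179 in growing KO cells. The 7 GTPases summed to 462, 528 and 427 TPM in growing WT cells and to 828, 824 and 745 in growing KO cells. In dormant cells the order of these sums was the other way, with 1683, 476 and 515 TPM in dormant WT cells and 249, 438 and 250 in dormant KO cells. Gbp2 ran against that order, with a mean of 65.9 TPM in dormant KO cells and 31.95 in dormant WT cells. The sums are of values as deposited, and median-ratio scaling moved the median GTPase difference between the dormant groups from -1.19 to -0.68. Ifi27l2a differed between the growing groups by 0.55 ± 0.12 (SE), limma adjusted p = 0.0641, which is under the size required for a call. Beside these values, the macrophage marker sum was 199 to 224 TPM in growing KO cells against 44.8 to 86.7 in growing WT cells, and that of fibroblast markers was 342 to 406 against 67.2 to 106. Alveolar type 2 markers summed to 465 to 472 TPM against 55.9 to 97.6, and club and ciliated markers to 1030 to 1071 against 294 to 315. Endothelial, neutrophil, T and NK cell and B cell sums were likewise higher in growing KO without overlap, whereas those of conventional dendritic cells overlapped. The summed levels of Spp1, Akr1c18 and Ibsp overlapped (30365 to 34299 TPM in growing KO cells and 33302 to 35433 in growing WT cells). The part of other cells or of the batch in these values was not tested.

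**Figure D4:**
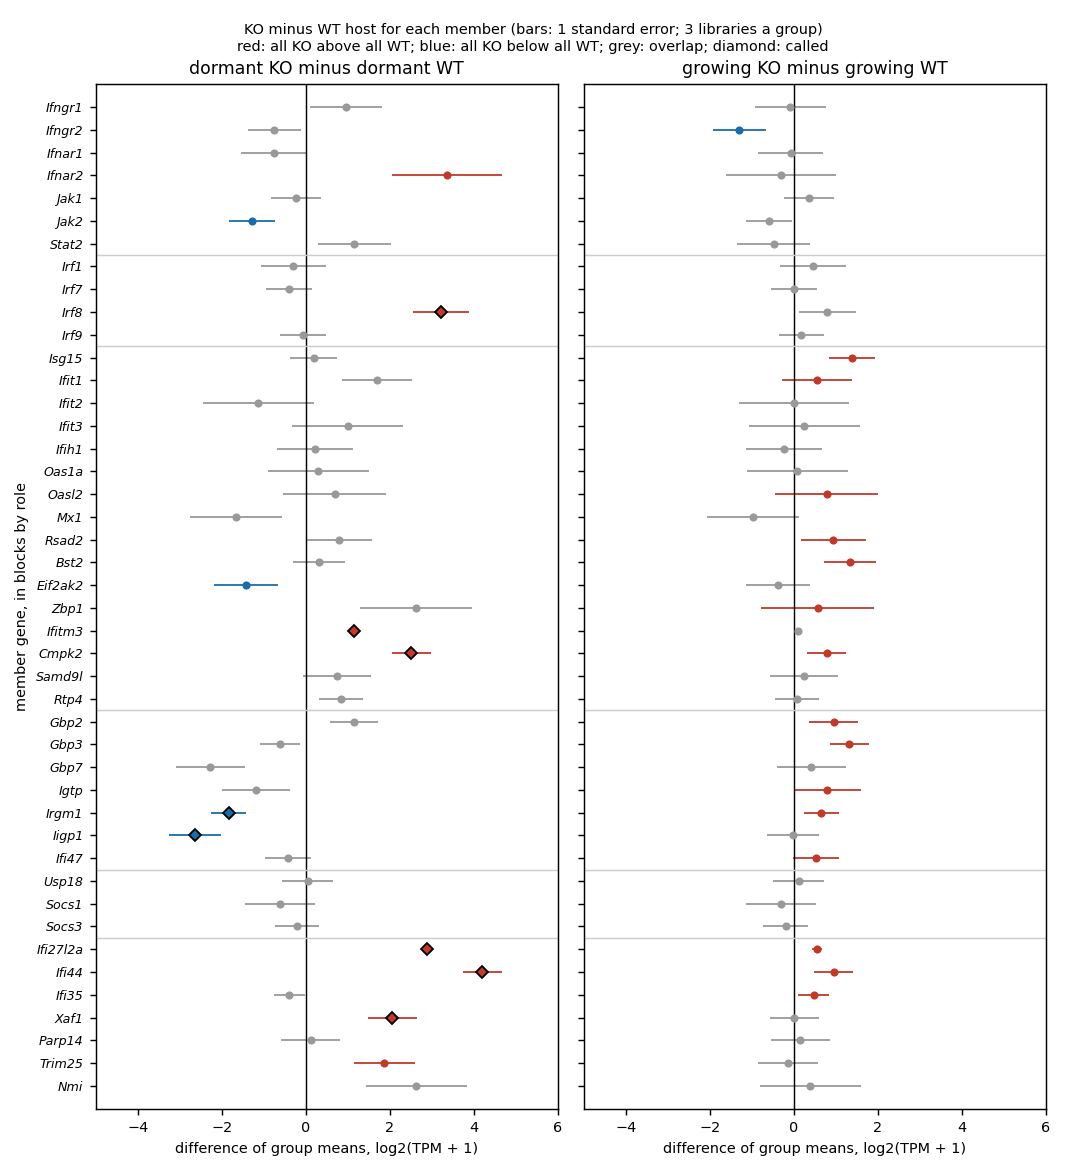
KO minus WT difference on the log2(TPM + 1) scale for each of the 44 members, in dormant (left) and growing (right) libraries, with bars of 1 standard error. Diamonds are called members (8 and 0), red and blue mark groups of libraries that do not overlap, with KO higher (8 and 15) or lower (4 and 1).

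The comparison of dormant with growing cells in WT hosts lies within library batch 1. Here 3 of 44 members fell (6.82%, beside 5.67% of all genes that fell and 7.51% called in all), and 0 rose (beside 1.85%). Ifit1 (ENSMUSG00000034459.8, chr19:34640871-34650009), which binds viral RNA, was at 4.28, 0.96 and 1.17 TPM in dormant WT cells against 46.2, 53.8 and 54.0 in growing WT cells. The groups were far apart, with a difference of -4.21 ± 0.83 (SE), limma adjusted p = 0.0108. It was lost with array weights (limma adjusted p = 0.0566, within a range of 0.00171 to 0.0566). Ifi44, at 0 or 0.01 TPM in dormant WT cells against 9.4 to 15.6 in growing WT cells, differed by -3.60 ± 0.46 (SE), limma adjusted p = 0.000780. Cmpk2 differed by -1.82 ± 0.47 (SE), limma adjusted p = 0.0344, and was lost in 5 of 6 fits that left out a library (dormant WT replicates 2 or 3, or growing WT replicates 1, 2 or 3, limma adjusted p 0.0504 to 0.135). Cmpk2 was also lost with a pseudocount of 5 (-0.64), quantile normalization, array weights, a replicate block and a replicate block within host (limma adjusted p of 0.0720 with the block and 0.124 with the block within host, and at most 0.233 over all alternatives). The count was 5 without dormant WT replicate 1 (11.4%, beside 14.8% of all tested genes in that fit) and 7 without dormant WT replicate 3 (15.9%, beside 11.1%), when Iigp1 and Gbp7 were among the calls and higher. Without overlap between the groups, 3 members were higher in dormant WT (Ifi27l2a, Iigp1 and Jak1, 6.82%, beside 7.22% of all tested genes) and 5 were lower (Cmpk2, Ifi44, Ifit1, Ifitm3 and Usp18, 11.4%, beside 19.4%). The median difference of the members was -0.24, beside -0.35 for all tested genes, and with quantile normalization it was -0.083, beside 0.038. Under that normalization 3 members were again higher and 5 lower without overlap, beside 18.6% and 13.6% of all tested genes. Macrophage markers summed to 1743 to 2137 TPM in dormant WT cells against 44.8 to 86.7 in growing WT cells, and their part in the result was not tested.

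The same comparison in KO hosts lies within library batch 2 and sets the 3 libraries rich in lung markers against growing KO. Of 44 members 1 rose, Ifi27l2a (2.27%, beside 8.31% of all genes), and 5 fell, Ifit1, Bst2, Gbp3, Irgm1 and Usp18 (11.4%, beside 9.48%). In all, 13.6% of members were called, beside 17.8% of all tested genes. Ifi27l2a differed by 2.66 ± 0.12 (SE), limma adjusted p = 1.3e-07. Ifitm3 differed by 0.82 ± 0.088 (SE), limma adjusted p = 8.1e-05, which was under the size required for a call. Gbp3 (ENSMUSG00000028268.14, chr3:142560026-142573209) was at 39.7, 81.4 and 22.8 TPM in dormant KO cells against 166, 198 and 143 in growing KO cells, with 73.6, 103 and 36.6 in dormant WT. It differed by -1.97 ± 0.47 (SE), limma adjusted p = 0.0124, and was lost without growing KO replicate 2 (limma adjusted p = 0.0524, within a range of 0.000774 to 0.0652). Irgm1 differed by -1.71 ± 0.42 (SE), limma adjusted p = 0.0140, and was lost without dormant KO replicate 3 (0.0553) or growing KO replicate 1 (0.0536), within a range of 0.000656 to 0.0693.

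The other 3 calls were the less steady ones. Ifit1 was at 1.11, 34.8 and 8.98 TPM in dormant KO cells against 70.3, 78.9 and 78.6 in growing KO cells, a difference of -3.08 ± 0.83 (SE), limma adjusted p = 0.0225. It kept its call in 1 of 6 fits that left out a library, the others, without dormant KO replicates 1 or 3 or growing KO replicates 1, 2 or 3, giving limma adjusted p of 0.0561 to 0.0692. Bst2 (ENSMUSG00000046718.8, chr8:71534255-71537456) was at 33.6, 79.7 and 85.4 TPM in dormant KO cells, with 89.1, 14.1 and 91.9 in dormant WT, and differed from growing KO by -1.97 ± 0.62 (SE), limma adjusted p = 0.0453. Usp18 (ENSMUSG00000030107.10, chr6:121245906-121270917), a protease that removes ISG15 and dampens the type I receptor, was at 25.7, 20.6 and 16.9 TPM in dormant KO cells against 111, 67.7 and 69.9 in growing KO cells. It differed by -1.91 ± 0.61 (SE), limma adjusted p = 0.0489. Bst2 and Usp18 lost their calls in each of the 6 fits that left out a library, with limma adjusted p of 0.0641 to 0.163 and 0.0825 to 0.156. With a replicate block both were lost as well (limma adjusted p = 0.0557 for Bst2 and 0.0513 for Usp18), and with a replicate block within host Usp18 was lost (0.0910). The groups of libraries did not overlap for Ifit1, Bst2 or Usp18. In all, 8 members were higher without overlap in dormant KO (18.2%, beside 16.4% of all tested genes) and 14 were lower (31.8%, beside 28.3%). This lean depended on the scaling. With median-ratio scaling 10 were higher and 10 lower (22.7% each, beside 24.02% and 17.39% of all tested genes), and 26 of 44 members had a difference above 0 in place of 15. With quantile normalization 10 were higher and 10 lower as well, beside 19.7% and 22.7%.

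All 7 GTPases were lower in dormant KO cells than in growing KO on average, 5 of them without overlap (71.4%, beside 28.3% of all tested genes). With median-ratio scaling or quantile normalization 6 of 7 were lower, 3 of them without overlap (42.9%, beside 17.4% and 22.7% of all tested genes). The median difference of the GTPases as deposited was -1.31, beside -0.32 for all tested genes. It was -0.72 with median-ratio scaling and -0.91 with quantile normalization. Median-ratio scaling moved the median of all tested genes to 0.09 and left 3 calls, all of members higher in dormant KO (Ifi27l2a, Ifitm3 and Irf8), and the 5 members that fell were not called under it.

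**Figure D5:**
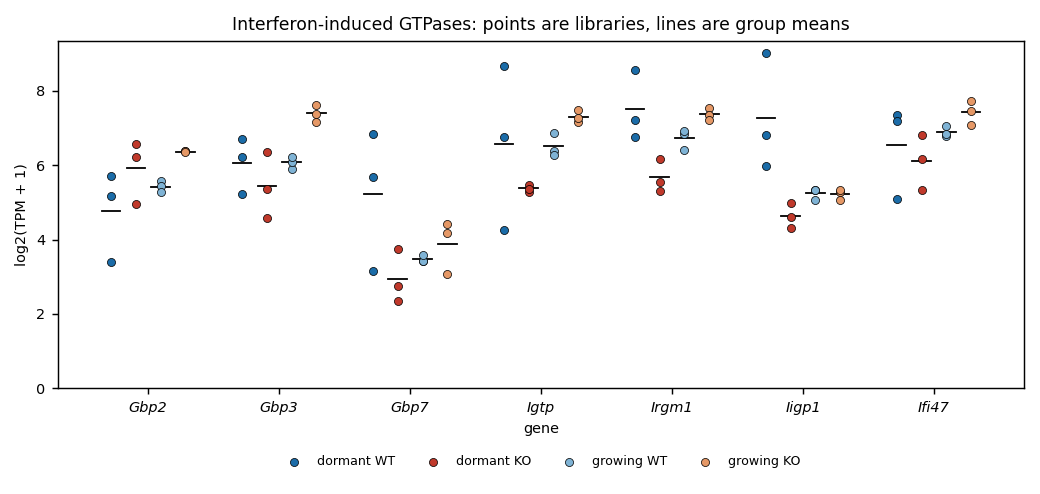
Levels of the 7 GTPases as log2(TPM + 1) in the 4 groups, with points for libraries and lines for group means. Growing KO (orange) lies above growing WT (light blue) for Gbp2, Gbp3, Igtp, Irgm1 and Ifi47, the dormant KO libraries (red) lie below all others for Irgm1 and Iigp1, and dormant WT (dark blue) is the most spread for each but Gbp3.

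The difference between hosts in dormant cells was then set against that in growing cells by the interaction term of the same fit. Of 44 members 4 were called (9.09%, beside 10.1% of all tested genes), 3 of them with a higher KO minus WT difference in dormant than in growing cells (6.82%, beside 6.18%) and 1 with a lower one (2.27%, beside 3.91%). For Ifi27l2a the KO minus WT difference was 2.89 in dormant and 0.55 in growing cells, and for Ifitm3 it was 1.16 and 0.089. For Ifi44 it was 4.20 in dormant and 0.94 in growing cells, and for Irgm1 it was -1.84 and 0.65. The interaction terms were 2.34 ± 0.17 (SE, limma adjusted p = 2.2e-05) for Ifi27l2a, 1.07 ± 0.12 (SE, limma adjusted p = 0.000399) for Ifitm3, 3.26 ± 0.65 (SE, limma adjusted p = 0.00825) for Ifi44 and -2.49 ± 0.60 (SE, limma adjusted p = 0.0209) for Irgm1. The term of Irgm1 was not called without growing WT replicate 3 (limma adjusted p = 0.0611) or growing KO replicate 1 (0.0561), or with a replicate block within host (0.0506), the range over its alternatives being 0.00598 to 0.0611. The term of Ifi44 was not called with a pseudocount of 5 (1.41) or with a replicate block within host (limma adjusted p = 0.0661), and that of Ifitm3 was 0.90 with quantile normalization, under the size required. The count was 9 without dormant WT replicate 2 or without dormant WT replicate 3 (20.5%, beside 13.6% and 13.0% of all tested genes in those fits), and all 4 were among the calls each time.

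The feedback regulators Socs1 and Socs3 were not called in any comparison. Socs1, the main inhibitor of JAK signalling from the IFN-γ receptor, was at 14.5, 0.11 and 6.18 TPM in dormant WT cells, 1.80, 3.32 and 1.82 in dormant KO cells, 17.1, 16.96 and 13.6 in growing WT cells and 7.85, 17.6 and 14.2 in growing KO cells. Dormant KO lay below growing KO without overlap. Socs3, which acts mainly on receptors that use gp130, was at 13.0, 9.87 and 7.61 TPM in dormant WT cells, 5.66, 8.12 and 12.9 in dormant KO cells, 9.06, 11.4 and 9.36 in growing WT cells and 5.72, 16.03 and 6.44 in growing KO cells, and every pair of groups overlapped. Usp18 was at 50.2, 5.96 and 25.2 TPM in dormant WT cells and at 72.0, 95.1 and 60.8 in growing WT cells, which did not overlap, and was not called there.

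The members not named above with values were Ifit2, Ifih1, Oas1a, Oasl2, Mx1, Rsad2, Eif2ak2, Samd9l, Rtp4, Gbp7, Ifi47, Ifi35, Parp14, Trim25 and Nmi. These were called in 0 of the 5 contrasts. Mx1, a GTPase that blocks viral ribonucleoproteins, was at most 3.61 TPM in every library but dormant WT replicate 2 (27.9 TPM). Rtp4, a receptor-transport protein, was the highest of the 15 in 10 of 12 libraries, with 62.7 to 423 TPM over all 12, Ifi35 lay at 55.5 to 210 TPM, and Parp14 stayed between 0 and 7.74 TPM. Oas1a, which makes the messenger that activates RNase L, was at 69.1 to 93.2 TPM in the 6 growing libraries and at 10.1 to 23.0 in dormant KO cells. Its dormant WT values were spread over 36.95, 77.6 and 0.03 TPM. Among these 15, the ranges of the 2 dormant groups met or overlapped for all but Eif2ak2, which was lower in dormant KO cells, and Trim25, which was higher.

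A further list of 74 pathway genes outside the 44 was written to describe the rest of the pathway, and 54 of them could be tested. Between the dormant groups 9 were higher and 2 lower (20.4% called, beside 22.3% of all tested genes). Between the growing groups 0 were called (beside 0.977%), and 2 had an unadjusted p of at most 0.05, beside 7.53% of all tested genes. Without overlap, 10 were higher in growing KO (18.5%, beside 13.3%) and 2 were lower (3.70%, beside 10.6%). For dormant against growing in WT hosts 1 was higher and 4 were lower (9.26% called, beside 7.51%), and in KO hosts 2 were higher and 1 was lower (5.56%, beside 17.8%). Ifit3b, a close copy of Ifit3 whose reads RSEM may divide between them, was listed at 0 in all of dormant WT, with 30.8, 70.3 and 15.8 TPM in dormant KO cells, limma adjusted p = 9.7e-05. The interferon genes on that list (Ifng, Ifnb1, Ifna1, Ifna2, Ifna4, Ifna5, Ifnl2, Ifnl3, Ifne and Ifnk) were each listed at 0 in all 12 libraries.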

How the data were processed

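D2A1 cells sorted as dormant or growing from the lungs of WT and Tgfbr2 KO hosts were profiled by RNA-seq in 12 libraries (4 groups of 3). The submitters' processing notes name bcl2fastq 2.20, cutadapt 1.18, STAR 2.5.2b, RSEM 1.3.3 and DESeq2. The authors aligned the reads to mm10 and deposited RSEM values by gene as TPM, which are scaled to length and to 1 total per library. Read depth is not kept in TPM, so counting error could not be given, and the number of libraries limits the precision. The methods describe Smart-seq2 on 50 cells and the labels an mRNA kit. From the same table, 30 columns of other samples were not used.

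Genes that reached 1 TPM in 3 or more libraries (13002 of 54146) were fitted as log2(TPM + 1) with limma 3.58.1 (R 4.3.3, trended empirical Bayes, 8 residual degrees of freedom), in a single model of 4 group means. The 5 contrasts, two-sided, were KO minus WT in each state, dormant minus growing in each host, and their interaction. A gene was called at a Benjamini-Hochberg adjusted p of at most 0.05 over all genes tested and a difference of at least 1. "Rose" and "fell" are used of called genes, and all differences are on the log2(TPM + 1) scale, which understates changes of low genes. The fit was tested on simulated data. The members and lists were chosen with earlier results of these data known, and the markers Spp1, Akr1c18 and Ibsp likewise. Receptor, JAK-STAT, IRF and SOCS members and all called members were named with every value, and others by counts and ranges. Gene positions are from GENCODE M21 (GRCm38, the assembly of mm10), and the use of strand in counting is not given in the sources used here. Besides Ifnar2 and Irf8, annotated genes on the same strand overlap Jak1, Irf9, Rtp4, Igtp, Ifi47, Gbp7 and Parp14, and reads of these may be shared. Alternatives were other pseudocounts (0.1 and 5), filters (none, or 5 TPM), median-ratio scaling, quantile normalization, array weights, a fit of only the groups compared, a replicate block, and leaving out each library. A fit without dormant KO was added after seeing the data.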

Additional observations from a re-analysis of the deposited data

Results flagged for a closer look

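For 4 members the dormant minus growing difference in KO hosts was unlike that in WT hosts by the interaction term of limma, with 3 libraries in each of 4 groups. Ifi27l2a differed by 2.66 in KO hosts and 0.32 in WT hosts, an interaction of 2.34. Ifi44 differed by -0.34 in KO hosts and -3.60 in WT hosts, an interaction of 3.26. Ifitm3 differed by 0.82 in KO hosts and -0.25 in WT hosts, an interaction of 1.07. Irgm1 differed by -1.71 in KO hosts and 0.78 in WT hosts, an interaction of -2.49. In Ifi27l2a and Ifitm3 the dormant KO libraries were the group apart, and in Ifi44 the dormant WT libraries. Dormant KO libraries also held the highest sums of alveolar, endothelial, macrophage, neutrophil, T and NK cell and B cell markers, whose part in these values was not tested. Among the macrophage markers Lyz2 was highest in dormant KO, whereas C1qa and C1qb were lower there than in dormant WT.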

How the results depend on the processing

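Pairs of percentages are the share of members called and the share of all tested genes called in the same fit. Fitting only the groups compared gave 5 called members between the dormant groups (11.4% and 12.9%), 3 between the growing groups (6.82% and 2.37%) and 12 for dormant against growing in KO hosts (27.3% and 24.1%). Array weights gave 3 between the growing groups (6.82% and 3.97%), 1 for dormant against growing in WT hosts (2.27% and 2.38%) and 12 in KO hosts (27.3% and 27.6%). In KO hosts no filter and median-ratio scaling each gave 3 (6.82%, beside 7.51% without filter and 16.5% with the scaling). Leaving out 1 library gave 7 to 15 calls between the dormant groups (all tested genes 19.1% to 28%), 0 between the growing groups (0.561% to 0.685%), 2 to 7 for dormant against growing in WT hosts (3.48% to 14.8%), 2 to 4 in KO hosts (13.5% to 16.1%) and 3 to 9 for the interaction (6.69% to 15%). In KO hosts the count was 3 without dormant KO replicate 1 (6.82% and 14.8%) and 2 without dormant KO replicate 3 or growing KO replicates 1 or 2 (4.55%, beside 15% without the first of these and 14% and 13.5% without the others). Ifngr1 between the dormant groups ran from -0.11 without dormant WT replicate 1 to 1.67 without dormant WT replicate 2. Deviations of libraries with the same number had correlations of -0.014 to 0.021 over 12 pairs. Between dormant and growing KO libraries these were 0.021, 0.019 and 0.011, against -0.018 to -0.00053 for different numbers. In WT hosts they were -0.010, -0.012 and 0.014, against -0.011 to 0.019 for different numbers. Correlations this small, with 3 libraries a group, cannot show whether libraries with the same number came from the same animal. With a replicate block over all 12 libraries 8, 0, 2, 5 and 4 members were called in the 5 contrasts in the order of the text (beside 20.9%, 0.661%, 5.78%, 16.3% and 8.06% of all tested genes), and with a replicate block within host the interaction gave 2 (4.55% and 5.15%). Leaving dormant KO out of the fit, added after seeing the data, gave 0 between the growing groups (beside 1.23% of all tested genes) and 3 for WT hosts (6.82% and 7.52%). TPM keep no depth, so low values such as those of Irf8, Stat2 and Mx1 could not be given a counting interval.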
